A study of Mus musculus with 6 samples.

Results

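The mRNAs that mark mast cells and basophils were followed in the spleens of garlic-fed and control mice through 9 genes, namely Gata2, Fcer1a, Ms4a2, Cpa3, Cma1, Mcpt4, Tpsb2, Mcpt8 and Prss34. Every probe set that the array annotation ties to 1 of these genes alone was kept, which gave 11 probe sets for 8 genes among the 45037 probe sets and 18193 named genes of the array. Prss34 was named by no probe set in the annotation used and was not analysed here. The study fed male C57BL/6J mice, 8 weeks old at the start, a casein and cornstarch diet with 4% cellulose (control mice, n = 3) or 4% lyophilized raw garlic powder (garlic-fed mice, n = 3) for 15 weeks. Both diets held the same soybean oil, minerals, vitamins, choline and L-cysteine. The methods name the strain C57BL/6JNarl. RNA from the frozen spleen of each mouse was hybridized to 1 Affymetrix array, on which each mRNA is read by 1 or more sets of short DNA probes, and the brightness of the bound RNA is given as a linear MAS5 signal.

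Mast cells and basophils are granule-filled cells of allergy and of the defense against parasites, and both carry the high-affinity IgE receptor, which sets off the release of their granules when antigen crosslinks the bound IgE. Mast cells mature in tissues and depend on the growth factor receptor Kit, whereas basophils mature in the bone marrow and circulate in blood. Their granules hold histamine, proteoglycans and proteases, among them chymases, tryptases and a carboxypeptidase. Gata2, a zinc finger transcription factor, is needed to form both cell types but also acts in stem cells and in early erythroid and megakaryocyte precursors, where Gata1 later takes its place.

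Of the genes studied here, Gata2 and Cma1 gave signals above background in all 6 spleens, and the others, apart from 3 single signals, did not exceed the level of genes that the spleen is not known to use. None of the measured genes differed between garlic-fed and control mice past the test. Background was read from 80 probe sets of odorant and vomeronasal receptors, genes of the sensory cells of the nose, and their 95th percentile in each array, 63.9 to 92.6, was taken as the reference level. Probe sets differ in brightness, so this level is a rough guide. A floor was set at a signal of 23.5, the 20th percentile, and limma was run on the 27022 probe sets whose mean log2 signal exceeded 6.08, the 40th percentile and equal to a signal of 67.5. Of the 11 member probe sets, 3 passed this filter, 2 of Gata2 and 1 of Cma1. Of the 80 receptor probe sets, 5 passed it, and 1 lay above the reference level in all arrays.

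**Figure D1:**
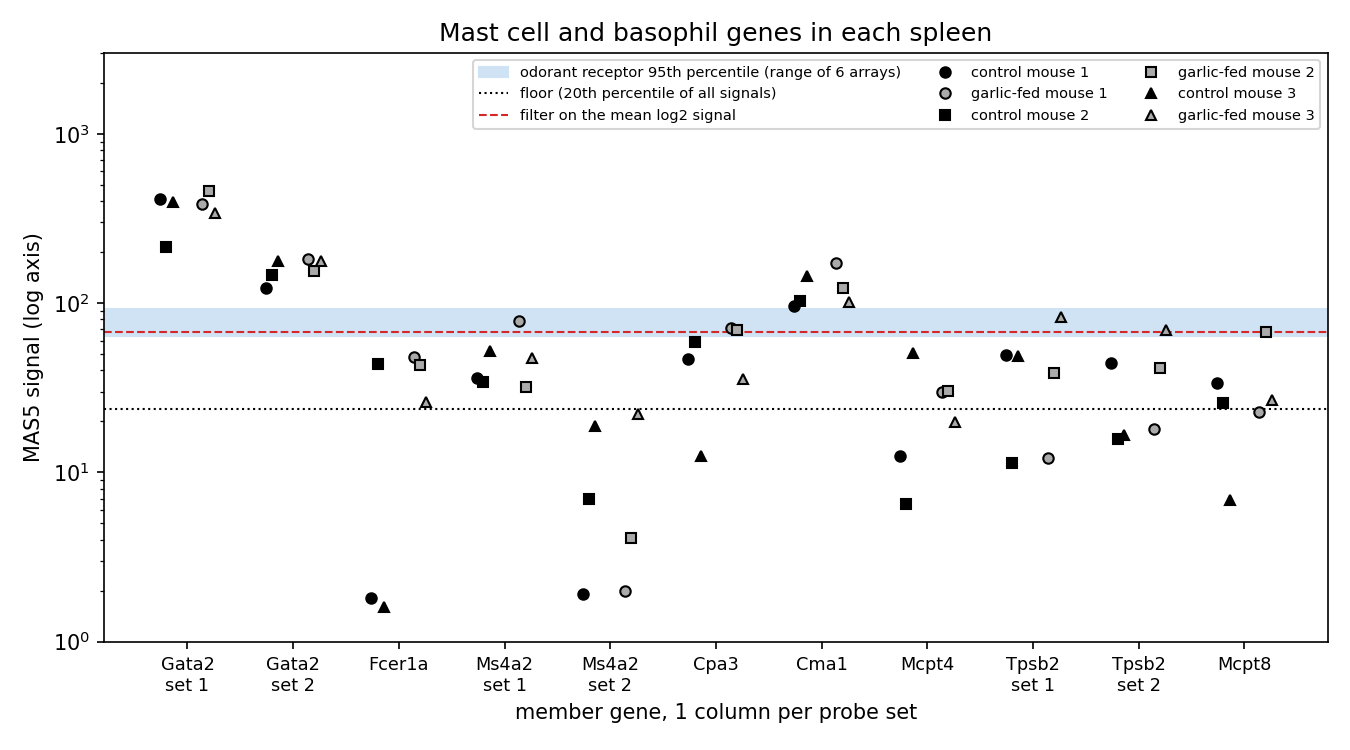
MAS5 signal (log axis) of the 11 member probe sets in each mouse, with control mice in black and garlic-fed mice in gray. The blue band spans the odorant receptor reference level of the 6 arrays (63.9 to 92.6), the dotted line is the floor at 23.5 and the dashed line the filter at 67.5; Gata2 and Cma1 lie above the band in every mouse, and 45 of the 48 signals of the other 8 probe sets do not exceed the reference level of their own array.

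The promoters of these genes were searched for the letters that GATA factors bind, since Gata2 is both a member and a regulator of mast cell genes. Shown are the windows of Cma1, the protease gene with signals above background, and of Cpa3 and Ms4a2, whose signals were at or near background. Each window runs from 250 bases before to 50 bases after the gene's start in RefSeq (build GRCm38.p6), 5′ to 3′ on the gene's own strand, and capitals mark AGATAA or AGATAG or TGATAA or TGATAG on either strand.
Cma1 (chr14:55944626-55944925, minus strand): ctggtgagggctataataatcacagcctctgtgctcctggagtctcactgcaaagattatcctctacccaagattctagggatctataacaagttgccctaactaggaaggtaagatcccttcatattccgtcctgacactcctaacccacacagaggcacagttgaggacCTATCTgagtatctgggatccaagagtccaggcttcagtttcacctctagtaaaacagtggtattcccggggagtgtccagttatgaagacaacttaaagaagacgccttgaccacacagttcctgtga
Cpa3 (chr3:20242132-20242431, minus strand): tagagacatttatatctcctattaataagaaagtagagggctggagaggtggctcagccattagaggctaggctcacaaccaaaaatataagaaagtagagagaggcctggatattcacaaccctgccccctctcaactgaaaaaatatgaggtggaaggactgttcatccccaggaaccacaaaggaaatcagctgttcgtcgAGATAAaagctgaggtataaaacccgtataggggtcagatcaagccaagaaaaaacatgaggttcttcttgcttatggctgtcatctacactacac
Ms4a2 (chr19:11623670-11623969, minus strand): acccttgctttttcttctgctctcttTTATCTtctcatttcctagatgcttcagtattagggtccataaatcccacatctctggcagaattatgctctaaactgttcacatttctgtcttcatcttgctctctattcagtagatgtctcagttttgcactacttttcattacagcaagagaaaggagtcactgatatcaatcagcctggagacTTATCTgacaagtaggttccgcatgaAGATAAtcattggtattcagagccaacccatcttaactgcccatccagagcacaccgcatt

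RefSeq windows were matched for 8 of the 9 genes, with 2 windows for Gata2 and none used for Tpsb2. The GATA letters stood in 6 of these 9 windows, those of Fcer1a, Cpa3, Cma1, Mcpt4, Prss34 and Ms4a2, and Ms4a2 held 3 of them. They also stood in 29.8% of all 32851 windows of the same length, so a match is common and describes the sequence only. The windows of Gata2 itself and of Mcpt8 held none.

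Gata2 was read by 2 probe sets, and neither differed between the diets past the test. The signals of Gata2 set 1 (probe set 1450333_a_at) were 409.1, 214.7 and 397.0 in control spleens and 386.0, 461.4 and 338.4 in garlic spleens. Control mouse 2 was low and the other 5 mice lay together, so the groups overlapped. The means were 340 ± 109 (SD, n = 3) and 395 ± 62.0 (SD, n = 3), which put the log2 fold change at 0.26 (SE 0.25, limma adjusted p = 0.767). Without control mouse 2 the log2 fold change was -0.04. The signals of Gata2 set 2 (probe set 1428816_a_at) were 122.6, 147.1 and 177.0 in control spleens and 180.9, 154.7 and 176.5 in garlic spleens. Here garlic-fed mouse 2 lay below the others of its group and control mouse 3 among them. Its log2 fold change stood at 0.21 (SE 0.21, limma adjusted p = 0.786). The 95% confidence intervals of garlic over control ran from 0.821-fold to 1.75-fold for set 1 and from 0.833-fold to 1.61-fold for set 2, and these arrays cannot tell apart differences within these limits. The mice ranked differently by the 2 probe sets, with control mouse 2 lowest by set 1 and control mouse 1 lowest by set 2.

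Cma1 encodes a chymase, a chymotrypsin-like protease that connective tissue mast cells store in their granules. Its signals were 96.1, 103.0 and 145.0 in control spleens and 173.3, 122.6 and 101.1 in garlic spleens. Garlic-fed mouse 1 was highest, and garlic-fed mouse 3 lay below control mice 2 and 3. The means were 115 ± 26.5 (SD, n = 3) and 132 ± 37.1 (SD, n = 3), which put the log2 fold change at 0.19 (SE 0.28, limma adjusted p = 0.861), with a 95% confidence interval of 0.741-fold to 1.76-fold. Without garlic-fed mouse 1 the log2 fold change was -0.019. In bulk tissue, fewer cells of a type and less RNA per cell cannot be told apart, so neither the number of mast cells nor their Cma1 content can be read from this signal.

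In all, 0 of the 3 tested member probe sets passed the adjusted threshold in either direction, against a background of 0.237% of the 27022 probe sets tested (64 called, of which 61 or 0.226% were higher and 3 or 0.0111% lower). None of the 3 had an unadjusted p under 0.05 from limma, against 11% of all probe sets tested with limma. None of the 3 had groups that did not overlap, against 16.8% of all probe sets tested.

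The IgE receptor consists of an alpha chain that binds IgE (Fcer1a), a beta chain that amplifies the signal (Ms4a2) and a gamma chain shared with other Fc receptors (Fcer1g). The signals of Fcer1a were 1.8, 43.4 and 1.6 in control spleens and 47.7, 43.3 and 25.9 in garlic spleens. Control mice 1 and 3 lay under the floor, whereas control mouse 2 lay among the garlic-fed mice, and none of these signals exceeded the odorant receptor reference level of its array. Ms4a2 set 1 (probe set 1443264_at) gave 36.2, 34.2 and 51.8 in control spleens and 78.5, 32.1 and 47.3 in garlic spleens, and only garlic-fed mouse 1 passed the reference level. Ms4a2 set 2 (probe set 1421475_at) was under the floor in all 6 mice, with signals from 1.9 to 22.1. The gamma chain, which macrophages and other myeloid cells also express, was far above background, with signals of 4922 ± 762 (SD, n = 3) in control and 5331 ± 430 (SD, n = 3) in garlic spleens (log2 fold change 0.12, SE 0.12, limma adjusted p = 0.768). Apart from the 1 signal of Ms4a2, the alpha and beta chains, the more restricted parts of the receptor, were thus not detectable above background.

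The granule proteases other than Cma1 were likewise at or near background. Cpa3, which encodes the mast cell carboxypeptidase that basophils and their precursors also carry, gave signals of 46.6, 58.5 and 12.5 in control spleens and 70.9, 69.4 and 35.8 in garlic spleens. Garlic-fed mice 1 and 2 were highest, and garlic-fed mouse 2 alone exceeded the reference level. Mcpt8, which encodes a serine protease of mouse basophils, gave 33.6, 25.7 and 6.9 in control spleens and 22.6, 67.7 and 26.7 in garlic spleens. Garlic-fed mouse 2 stood alone above the reference level, and the other 5 signals lay near or under the floor.

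Mcpt4, which encodes a second chymase of connective tissue mast cells, gave 12.4, 6.5 and 50.5 in control spleens and 29.7, 30.2 and 19.7 in garlic spleens. Control mouse 3 was highest, and none exceeded the reference level. Tpsb2, the gene of a mast cell tryptase, gave 49.4, 11.3 and 48.6 in control spleens and 12.2, 38.5 and 83.2 in garlic spleens by Tpsb2 set 1 (probe set 1422180_a_at). By Tpsb2 set 2 (probe set 1451802_at) it gave 44.4, 15.7 and 16.6 in control spleens and 18.0, 41.6 and 69.7 in garlic spleens. Garlic-fed mouse 3 was highest by both probe sets and did not reach the reference level of its array, 87.0. Chymases and tryptases belong to families of similar genes, and the probe sequences were not used here, so signal shared between such genes could not be checked.

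Together these 8 dim probe sets gave 48 signals, of which 3 exceeded the reference level of their array, all 3 in garlic spleens. That level was 75.4 and 63.9 in garlic-fed mice 1 and 2, which held these signals of 67.7 to 78.5. It was higher, at 81.4, 78.5 and 92.6, in control mice 1, 2 and 3. The highest control signal of these probe sets was 58.5 (Cpa3, control mouse 2), under the reference level of every array. Garlic signals of up to 83.2 (Tpsb2 set 1, garlic-fed mouse 3) were not counted, as they lay under the level of their own array. This count was not tested either, and no difference between the diets is read from it. Under the floor lay 12 of the 24 control signals and 7 of the 24 garlic-fed signals. The 24 signals of a group come from the same 3 mice, and Ms4a2 and Tpsb2 enter by more than 1 probe set. They are not separate replicates, no test was made of this count, and no difference between the diets is read from it. The groups overlapped in every one of these 8 probe sets, against 14.1% of all 45037 probe sets with groups that did not overlap. The highest signal was in a garlic-fed mouse for 10 of the 11 member probe sets (mouse 1 for 5, mouse 2 for 2 and mouse 3 for 3), against 49% of all probe sets, a count for which no test was made and to which the dim probe sets contribute most. No fold change is given for them, as signals near background have no known size. With the filter left out, none of the 11 member probe sets passed the adjusted threshold, against 0.0244% of the 45037 probe sets, and the adjusted p of the 8 dim ones lay between 0.781 and 1 (limma). None of the 11 had an unadjusted p under 0.05, against 8.68%.

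**Figure D2:**
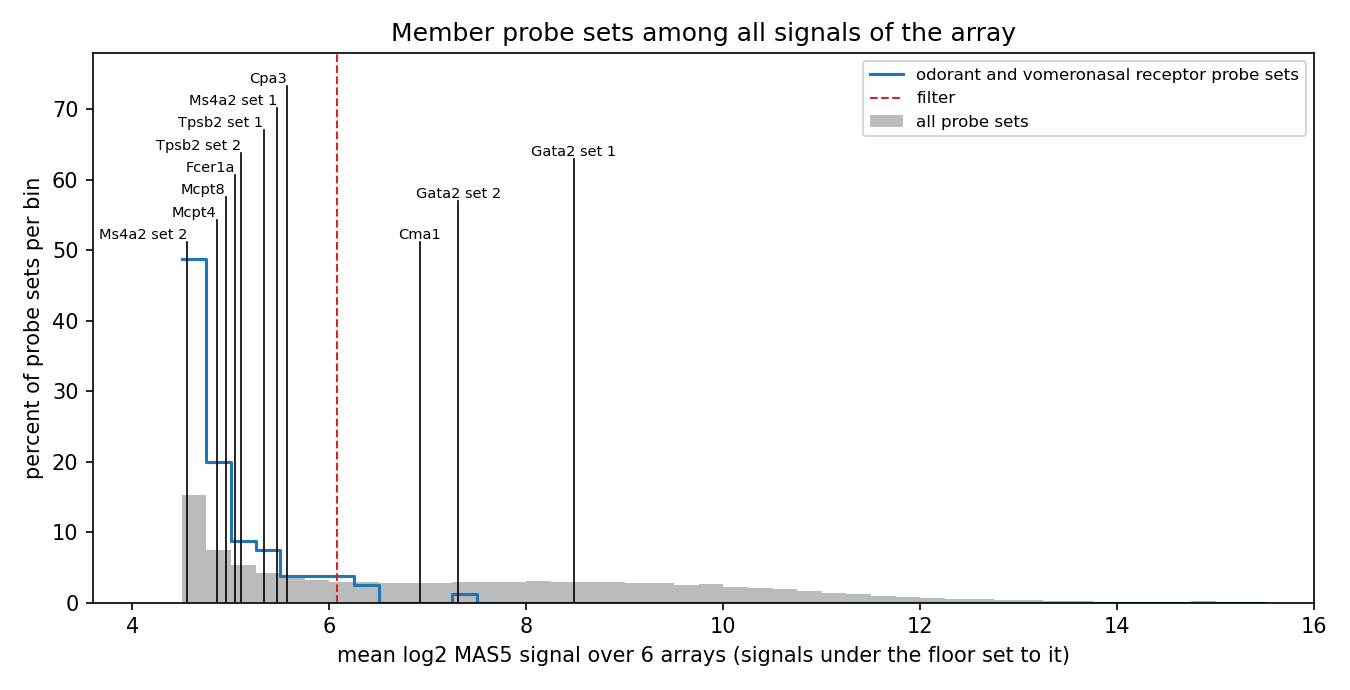
Position of the 11 member probe sets (black lines, with heights set only to separate the names) on the scale of the mean log2 MAS5 signal over the 6 arrays, beside the percent of all probe sets (gray bars) and of odorant and vomeronasal receptor probe sets (blue line) in each bin. Gata2 and Cma1 lie above the filter at 6.08 (red dashed line) and 8 member probe sets lie under it, in the range that holds most receptor probe sets.

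Of 5 further marker genes of mast cells or basophils, Kit alone passed the filter. The mucosal mast cell proteases Mcpt1 and Mcpt2, the tryptase Tpsab1 and the basophil receptor Cd200r3 did not pass it. Hdc, Slc18a2, Enpp3 and Itga2, genes of histamine storage or of the surface that other cells also use, passed it by 1 probe set each with signals above the reference level in some but not all mice. Kit, the receptor for stem cell factor, is also carried by stem cells and erythroid precursors, and its signals were 796.2, 950.6 and 960.6 in control spleens and 748.1, 887.2 and 704.5 in garlic spleens, with overlapping groups (log2 fold change -0.21, adjusted p = 0.618). Hdc, the enzyme that makes histamine, exceeded the reference level in 3 mice, 1 control and 2 garlic-fed (set 1454713_s_at), and by its other probe set (1451796_s_at) garlic-fed mouse 2 had 121.1 and the other 5 mice 14.3 to 22.6. Enpp3 had 5 probe sets. By its dim set 1439260_a_at signals were 12.9, 14.0 and 27.1 in control spleens and 31.3, 49.5 and 42.1 in garlic spleens. These groups did not overlap, but no signal exceeded the reference level, and the groups overlapped by all its other sets. All 10 measured marker genes of spleen passed the filter and exceeded the reference level in every mouse. They do not show that the samples were spleen alone, as signal of fat tissue and pancreas was also present.

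The genes that work with the members fell into lists whose counts are given beside the background of 0.351% of 12262 genes called and a median log2 fold change of -0.028 over all these genes, with each gene represented by its probe set of the highest mean signal. Of 14 measured genes of IgE receptor signaling, none passed the adjusted threshold and the median was -0.029. Lat2, an adaptor protein under the receptor, had signals of 1382 ± 135 (SD, n = 3) in control spleens and 1093 ± 43.7 (SD, n = 3) in garlic spleens, with every garlic-fed mouse below every control mouse (log2 fold change -0.34, adjusted p = 0.280). Of 10 tested genes of granule contents and mediators none passed, with a median of -0.071. Srgn, the core protein of granule proteoglycans, which many blood cells make, stood at -0.071 (adjusted p = 0.753), and Gnptab, an enzyme that tags proteins for lysosomes, at -0.28 (adjusted p = 0.451). Of 9 tested surface and growth factor receptors none passed, with a median of -0.097 and Ccr2, a chemokine receptor of monocytes and others, at -0.41 (adjusted p = 0.372) by 1 of its 4 probe sets and from -0.54 to 0.24 by the others.

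Of 10 ligands and cytokines that act on these cells, 8 did not pass the filter, among them Il3 and Il4. The 2 that did were Kitl, the gene of stem cell factor, at 0.062 (adjusted p = 0.911) by its probe set of the highest signal and Il33, an alarm cytokine of stromal cells, at -0.18 (adjusted p = 0.804). By the other 3 probe sets of Kitl the log2 fold change was 0.064, 0.13 and 0.74, the last with overlapping groups (set 1426152_a_at, adjusted p = 0.407). Of 3 other tested proteases none passed, 2 with lower and 1 with higher means in garlic spleens. Prss29 (-0.59, adjusted p = 0.474, by the brightest of its 3 probe sets) and Gzmb (-0.24, adjusted p = 0.760), the gene of granzyme B, had the highest mean signals. Ctsg, the gene of cathepsin G, stood at 0.61 (adjusted p = 0.468). Of 4 tested eosinophil genes none passed. Il5ra, the receptor chain for interleukin 5, stood at -0.63 (adjusted p = 0.430), and Prg2, the major basic protein, at 0.15 (adjusted p = 0.861).

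Among the transcription factors that act with or after Gata2, none passed the adjusted threshold. Of the 16 tested, an unadjusted p under 0.05 was met by 4 with higher and 2 with lower signals, against 13.1% of the 12262 genes, and the median log2 fold change was 0.064. The groups did not overlap for 9 of the 16, 6 with higher and 3 with lower signals in garlic spleens, against 19.8% of the genes. Tal1, a partner of the GATA factors, had one of 1.04 (SE 0.19, limma adjusted p = 0.0673), and Zfpm1, the cofactor FOG-1, one of 0.75 (SE 0.17, limma adjusted p = 0.125). Gata1 gave signals of 658.7, 660.1 and 888.5 in control spleens and 972.1, 1215.6 and 1501.4 in garlic spleens (log2 fold change 0.73, SE 0.18, limma adjusted p = 0.143). All garlic-fed mice lay above all control mice for these 3 genes, unlike for Gata2. Cebpb, a factor of myeloid and other cells, stood at 0.66 on the log2 scale (adjusted p = 0.230). Its signals were 1435.7, 1658.4 and 1554.2 in control spleens and 2578.0, 3298.9 and 1720.6 in garlic spleens. Garlic-fed mice 1 and 2 were also those with the most fat tissue signal, and a link was not tested. The log2 fold changes of Ikzf2, a factor of lymphocytes, and Fli1, a factor of megakaryocytes and endothelium, were -0.44 (adjusted p = 0.197) and -0.37 (adjusted p = 0.331). The log2 difference between Gata1 and Gata2 within each array was larger in garlic spleens by 0.52 with Gata2 set 2 (p = 0.1, the smallest that the exact two-sided permutation test of 3 mice against 3 can give) and by 0.47 with set 1 (exact p = 0.4), a comparison chosen after the values were seen. It is therefore not shown that the diet response of Gata2 differed from that of Gata1.

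Of 10 measured markers of erythroblasts, 4 were higher past the adjusted threshold, Kel, Ank1, Ermap and Tfrc. All 10 had a positive log2 fold change, with a median of 1.14. An unadjusted p under 0.05 (limma) was met by 9 of the 10, against 13.1% of the 12262 genes. The groups did not overlap for 9, against 19.8% of the genes. Ank1 was called by only 1 of its 4 probe sets. By the others it stood at 1.045 (1425677_a_at, limma adjusted p = 0.12) and -0.195 (1443291_at, limma adjusted p = 0.907), or did not pass the filter (1452512_a_at). Alas2, an enzyme of heme synthesis in erythroblasts, stood at 0.20 with overlapping groups (adjusted p = 0.683). The signals of all 10 summed to 35221 to 44038 in control spleens and to 56550 to 76716 in garlic spleens. Of 7 measured markers of granulocyte precursors none passed the threshold. All 7 had a positive log2 fold change, with a median of 0.61. An unadjusted p under 0.05 (limma) was met by 3 of the 7, against 13.1% of the genes. The groups did not overlap for the same 3, against 19.8%. Mpo, Prtn3 and Elane, granule enzymes of these cells, stood at 0.94, 1.07 and 0.92 (adjusted p from 0.117 to 0.132), and the 7 signals summed to 4049 to 5210 in control spleens and to 5932 to 6544 in garlic spleens. Most of this sum was Mgst1, with 3666 ± 403 (SD, n = 3) in control and 4298 ± 343 (SD, n = 3) in garlic spleens. Its groups overlapped (log2 fold change 0.23, limma adjusted p = 0.456), and the other 6 genes were not summed apart from it. Of 6 measured megakaryocyte markers none passed, with a median of -0.01. Gfi1b, a repressor of erythroid and megakaryocyte precursors, was the 1 gene called among 10 tested genes of stem and progenitor cells (log2 fold change 1.02, adjusted p = 0.0427). These 5 calls were lost without control mouse 1 (adjusted p from 0.0661 to 0.180) or control mouse 2 (0.0629 to 0.112), and that of Gfi1b without any 1 of the 6 mice (0.0551 to 0.180). All 5 were lost with no filter (0.265 to 0.304) or no trend of variance (0.225 to 0.265), and without the 2 arrays with the most pancreatic signal in their group all but that of Ank1 were lost (0.0558 to 0.215). The part of erythroblasts and granulocyte precursors in the values of Tal1, Zfpm1 and Gata1 was not tested.

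**Figure D3:**
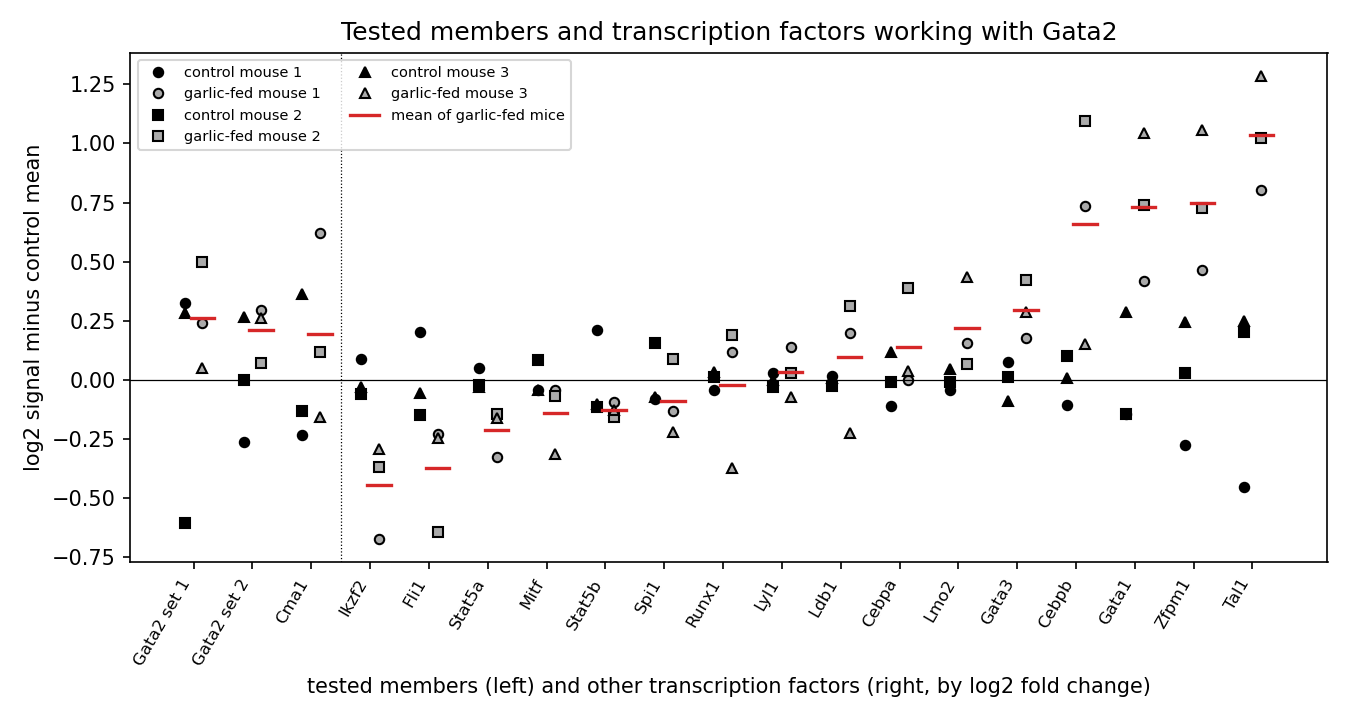
Log2 signal of the tested member probe sets (left of the dotted line) and of the transcription factors working with Gata2 (right, ordered by log2 fold change) in each mouse, relative to the mean of the 3 control mice; red bars are the means of the garlic-fed mice. The groups overlap for both Gata2 probe sets and for Cma1, and lie apart for 9 of the 16 transcription factors, among them Gata1, Zfpm1 and Tal1.

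Signal of fat tissue and pancreatic genes differed between the spleens, and where it came from was not tested. The 6 measured fat tissue genes summed to 2491 to 3789 in control spleens and to 7955, 9207 and 2295 in garlic spleens 1, 2 and 3. The 9 measured pancreatic genes summed to 125326, 16666 and 59418 in control spleens and to 2067, 32731 and 2279 in garlic spleens. Connective tissue genes, which mark the surroundings of mast cells, summed to 10209 to 11839 and 9582 to 12051, and none of the 8 tested passed. Without garlic-fed mice 1 and 2 the log2 fold change of Cma1 was -0.16 (adjusted p = 0.887), that of Gata2 set 1 was 0.051 and that of set 2 was 0.26, with the single garlic-fed mouse left assumed to vary like the others. Without the mouse of each group with the most pancreatic signal, control mouse 1 and garlic-fed mouse 2, they were 0.12 (adjusted p = 0.998), 0.31 and 0.15. The part of fat and pancreas in these values was not tested further.

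The genes with a pattern most like that of Gata2 set 1, the member probe set with the highest mean signal and also the smallest unadjusted p, were Hectd2, Dclk2 and Dusp26. Likeness was measured over the 6 arrays as the root mean square difference of log2 signals, each centred on its own mean, among 12261 genes. It was 0.0562 for Hectd2, 0.0786 for Dclk2 and 0.114 for Dusp26, against a median of 0.404 over all genes. Control mouse 2 sets much of this pattern, so likeness to it was fixed by the choice. Hectd2 (52.8 to 105.9) and Dusp26 (42.6 to 100.8) had signals near background in part of the mice.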

How the data were processed

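Spleen RNA of 3 control and 3 garlic-fed mice was measured on 1 Affymetrix array each. The authors deposited linear MAS5 signals, an intensity per probe set. Each array had a trimmed mean of 500 (2% left out at each end), which was found from the values, and the MAS5 version and detection calls were not given in the sources used here. The median signal was 119.7 to 132.2 per array, and the median correlation with the other arrays of the group 0.966 to 0.978. The number of arrays limits the precision.

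After 64 control probe sets were left out, probe sets were named by the platform annotation: 34945 had 1 gene name, 932 several and 9160 none, and 34741 were matched to RefSeq by identifier. Fits used limma 3.58.1 in R 4.3.3 (lmFit, eBayes with a trend of variance), with Benjamini-Hochberg adjustment over the 27022 probe sets tested at a threshold of 0.05. The procedure was tested on simulated data. Plots were made in Python 3.11.15 with matplotlib 3.10.9. All members were named; of each other list, genes past the threshold (up to 4, by size of change), or else up to 3 with an unadjusted p under 0.05 and the 2 brightest, were candidates, and those that bear on the members are named. Il3, Il4, Mcpt1, Mcpt2, Tpsab1, Cd200r3, Kit, Hdc, Slc18a2, Enpp3, Itga2, Ctsg, Cebpb, Ikzf2 and Alas2 were named beyond this rule. The members and lists were chosen with earlier results of these data known.

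Alternatives were quantile normalization, median centring, other floors and filters, no trend of variance, one-way ANOVA, the replicate number as a block and leaving out each array. Leaving out arrays by pancreatic or fat tissue signal was chosen after seeing the data.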

Additional observations from a re-analysis of the deposited data

How the results depend on the processing

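In limma and in the ANOVA, 0 member probe sets passed the adjusted threshold under any of the 18 alternatives run, and none had an unadjusted p under 0.05. Few arrays and signals near background limit this: the intervals of the tested members reach 1.61-fold to 1.76-fold, and up to 1.97-fold (Gata2 set 2), 2.06-fold (Gata2 set 1) and 2.1-fold (Cma1) under the alternatives in limma, and 8 probe sets lay near background. The log2 fold change of Gata2 set 1 was -0.04 without control mouse 2 and lay between that and 0.425 without single arrays. That of Cma1 lay between -0.019 (without garlic-fed mouse 1) and 0.375 (without control mouse 3) without single arrays, and was -0.158 without garlic-fed mice 1 and 2. Gata2 set 2 kept its direction in 17 of 17 alternatives (0.078 to 0.34). With a filter at the 60th percentile Gata2 set 1 alone was tested. Over all probe sets, 64 were called, and 151 with median centring, 11 with no filter (4 higher and 7 lower), 28 without the arrays of most pancreatic signal (2 higher and 26 lower, against 61 and 3) and 465 without garlic-fed mice 1 and 2 (337 higher and 128 lower). Without garlic-fed mouse 2 it was 62 (28 higher and 34 lower), and without garlic-fed mouse 3 it was 86 (64 higher and 22 lower). No probe set was called with no trend of variance (2812 at an unadjusted p under 0.05) or with ANOVA on log2 (2548) or linear signals (2514), and the count was 0 to 114 without single arrays, being 0 without control mouse 1 or 2 and 33 without control mouse 3. With the replicate number as a block it was 295, and 0 members. Same-numbered arrays showed little shared deviation (correlations 0.001, -0.176 and 0.078 for numbers 1, 2 and 3). For number 3 only, the control array deviated most like the garlic array of its own number. The labels give no pairing, and these values cannot show whether the numbers pair the mice.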
